A study of Mus musculus with 4 samples.

Results

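Tumor-associated macrophage genes were examined in mouse lungs carrying metastases of the triple-negative breast cancer (TNBC) line 4T1. The set holds 10 of the 56748 genes in the count table, found by gene symbol: Arg1, Nos2, Mrc1, Trem2, Spp1, Gpnmb, Apoe, Cd68, Adgre1 and Cd163. Each symbol matched 1 row, and all 10 passed the filter on low counts. Bulk RNA sequencing was compared between 2 saline samples and 2 samples treated with ADC/cmLumiOpto, to ask how the combined therapy affects the metastases and their immune surroundings. All groups were female BALB/cJ mice aged 7 weeks, injected in the tail vein with 2000000 cells of 4T1-FLuc, a mouse TNBC line that expresses luciferase. The ADC is an anti-CD276 antibody carrying mertansine (DM1), a microtubule inhibitor. The cmLumiOpto gene therapy is an adeno-associated virus wrapped in exosomes, whose light-gated channel CoChR, driven by a cfos promoter, depolarizes the mitochondria of cancer cells when a luciferase lights up with the substrate ViviRen. The sources differ on several points: the sample labels give an ADC dose of 16 mg/kg, the word Olap in the treatment, PBS as the control, and tumor cells harvested from the lung after 3 weeks, whereas the study's methods give 8 mg/kg, saline, dissociated lung tissue and 4 samples per group. The material is therefore a mixture of carcinoma, lung and immune cells, and for every gene below fewer cells of a type and less RNA per cell cannot be told apart.

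Macrophages of the lung come from resident alveolar and interstitial cells and from blood monocytes that mature in the tissue, and those inside a tumor are called tumor-associated macrophages. Classical (M1-like) activation by interferon and microbial products induces Nos2, the inducible nitric oxide synthase, which makes nitric oxide from arginine. Alternative (M2-like) activation by interleukin-4 and interleukin-13 induces Arg1, the arginase that splits the same amino acid into ornithine and urea, together with Mrc1, the mannose receptor CD206. Many tumor macrophages instead carry a lipid-handling program around Trem2, a receptor for lipids and apolipoproteins that signals through Tyrobp (DAP12), with Gpnmb, Apoe and Spp1 among its genes. Adgre1 encodes F4/80, the standard surface marker of mouse macrophages, and Cd68 a glycoprotein of their lysosomes. Cd163 is the scavenger receptor for haptoglobin-bound hemoglobin and marks resident and M2-like macrophages.

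The RefSeq promoter table (GRCm38.p6) held 7 of the 10 genes. The 250 bases before the start are printed for the 4 genes with an unadjusted p under 0.05 between the groups and for Spp1, the most abundant of the set, since these genes carry the comparison. Capitals mark matches to letters searched on both strands, namely the AP-1 site TGACTCA or TGAGTCA, the E-box CACGTG, the E-box CATGTG or CACATG, and the PU.1 site GAGGAAGT or ACTTCCTC. Trem2, + strand, chr17:48346151-48346400, and Gpnmb, + strand, chr6:49036268-49036517, are the pair with more reads after treatment. Mrc1, + strand, chr2:14229164-14229413, and Cd163, + strand, chr6:124304401-124304650, are the pair with fewer. Spp1 lies on the + strand at chr5:104434861-104435110.
Trem2: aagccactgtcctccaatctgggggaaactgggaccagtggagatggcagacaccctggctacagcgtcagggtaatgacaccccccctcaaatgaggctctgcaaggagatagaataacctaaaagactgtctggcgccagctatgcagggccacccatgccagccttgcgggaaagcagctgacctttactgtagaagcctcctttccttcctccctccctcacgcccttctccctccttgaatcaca
Gpnmb: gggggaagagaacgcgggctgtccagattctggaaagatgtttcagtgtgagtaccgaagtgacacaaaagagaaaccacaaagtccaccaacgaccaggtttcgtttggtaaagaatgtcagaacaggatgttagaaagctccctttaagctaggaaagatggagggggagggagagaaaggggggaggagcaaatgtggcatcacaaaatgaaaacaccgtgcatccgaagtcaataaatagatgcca
Mrc1: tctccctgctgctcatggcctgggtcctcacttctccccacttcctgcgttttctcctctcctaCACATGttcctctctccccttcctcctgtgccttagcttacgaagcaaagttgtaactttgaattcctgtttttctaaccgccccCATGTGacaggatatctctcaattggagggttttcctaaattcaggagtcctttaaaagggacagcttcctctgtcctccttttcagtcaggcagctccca
Cd163: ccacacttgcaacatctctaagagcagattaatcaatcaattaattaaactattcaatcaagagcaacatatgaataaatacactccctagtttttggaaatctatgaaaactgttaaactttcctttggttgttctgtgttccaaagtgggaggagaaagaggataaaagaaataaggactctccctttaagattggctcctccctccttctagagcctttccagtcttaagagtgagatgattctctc
Spp1: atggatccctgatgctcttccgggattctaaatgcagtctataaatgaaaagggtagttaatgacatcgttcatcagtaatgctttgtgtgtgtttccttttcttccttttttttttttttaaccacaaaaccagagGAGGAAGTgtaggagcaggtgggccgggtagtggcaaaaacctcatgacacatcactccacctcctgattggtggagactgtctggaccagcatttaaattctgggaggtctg

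Mrc1 held 2 matches, CACATG at 186 to 181 bases and CATGTG at 101 to 96 bases before the start, and this E-box occurred in 12.2% of the 27025 promoters of the table. Spp1 held GAGGAAGT at 113 to 106 bases before the start, letters present in 2.42% of promoters. Cd68 held TGAGTCA at 149 to 143 and at 24 to 18 bases before the start, against 4.43% of promoters with an AP-1 match, and CACGTG occurred in 6.04%. Trem2, Gpnmb, Cd163 and Apoe had none of these letters in this window.

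Sequencing depth ranged from 15263375 to 19675436 counts, at which a floor of 3 counts stood at 0.146 to 0.202 CPM (counts scaled to the TMM-normalized library size). The lowest count of any of the 10 genes in any sample was 60, for Cd163. Replicates of a group differed by more than counting noise. The gene symbols below are given with the Ensembl identifier and the position listed with the counts, which the submitters' notes place on mm39. No gene of the 15320 tested had an adjusted p under 0.05 in edgeR's quasi-likelihood test (0%), the smallest adjusted p was 0.116, and 23.2% had an unadjusted p under 0.05. The differences below are therefore given as values.

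Trem2 and Gpnmb, 2 genes of the lipid-handling program, were higher in both ADC/cmLumiOpto samples. Trem2 (ENSMUSG00000023992, chr17:48653429-48661175), the lipid receptor itself, was at 35.2 and 25 CPM with saline and 66.2 and 59.0 CPM with ADC/cmLumiOpto. Both treated samples lay above both saline samples with a clear gap. The means were 30.1 ± 7.20 and 62.6 ± 5.08 CPM (SD, n = 2), a ratio of 2.08 and a log2 fold change of 1.06 with a standard error of 0.21 (95% interval 0.55 to 1.57; edgeR quasi-likelihood test, adjusted p = 0.116, unadjusted p = 0.00201). Gpnmb (ENSMUSG00000029816, chr6:49013480-49047863), a transmembrane glycoprotein of phagocytes with loaded lysosomes, was at 16.9 and 10.4 CPM in saline and 48.6 and 36.6 CPM after treatment. Again the groups were apart, and Gpnmb had the largest difference of the set toward the treated side. Which cells of the mixture gave the Gpnmb reads was not tested. Its mean was 13.7 ± 4.55 CPM in saline and 42.6 ± 8.49 CPM after treatment, 3.12 times as high, with a log2 fold change of 1.64 ± 0.29 (SE; 95% interval 0.95 to 2.33; edgeR quasi-likelihood test, adjusted p = 0.116, unadjusted p = 9.29e-04). Both genes passed an adjusted p of 0.05 in DESeq2 and in the edgeR exact test, which called 8.69% and 7.46% of all genes tested (Trem2, adjusted p = 0.00223 and 0.00427; Gpnmb, adjusted p = 6.67e-05 and 2.04e-04).

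**Figure D1:**
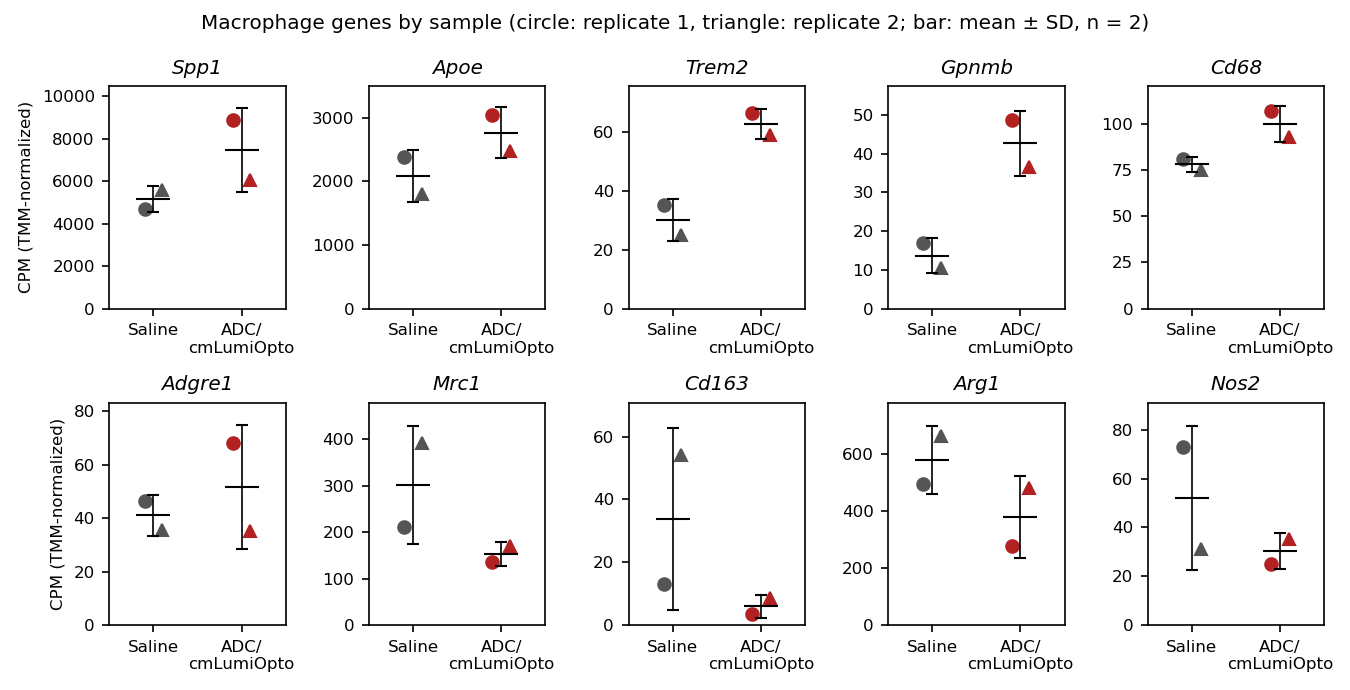
Normalized expression (CPM, linear axes starting at 0) of the 10 macrophage genes in the 2 saline and 2 ADC/cmLumiOpto samples; points are samples and bars the mean ± SD. The treated samples lie above both saline samples for Spp1, Apoe, Trem2, Gpnmb and Cd68 and below them for Mrc1, Cd163 and Arg1, while Adgre1 and Nos2 overlap.

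The secreted members of the program were the most abundant genes of the set. Spp1 (ENSMUSG00000029304, chr5:104582984-104588916) encodes osteopontin, a secreted phosphoprotein that binds integrins and Cd44 and is made by macrophages and by many carcinoma cells. Spp1 was at 4706 and 5593 CPM in saline and 8870 and 6051 CPM after treatment, at rank 3 of all genes tested by mean CPM, and took 0.468% and 0.544% of all counts with saline and 0.876% and 0.631% with treatment. The treated samples were higher without overlap, but treated replicate 2 was close to saline replicate 2. The log2 fold change was 0.53 ± 0.24 (SE; edgeR quasi-likelihood test, adjusted p = 0.240), and with the trend of fold change on gene length removed it was 0.19. Apoe (ENSMUSG00000002985, chr7:19430034-19433113), the lipid-carrying apolipoprotein and a ligand of Trem2, was at 2378 and 1795 CPM in saline and 3046 and 2476 CPM after treatment. Treated replicate 2 exceeded saline replicate 1 by a small margin, and the log2 fold change of 0.40 ± 0.21 (SE; edgeR quasi-likelihood test, adjusted p = 0.30) was 0.12 with the length trend removed. Over all genes tested, log2 fold change and gene length had a Spearman correlation of -0.34.

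The general macrophage markers differed less. Cd68 (ENSMUSG00000018774, chr11:69555039-69556979) was at 80.7 and 75.0 CPM in saline and 107 and 92.8 CPM after treatment. Its groups did not overlap, yet the log2 fold change of 0.36 ± 0.17 (SE; edgeR quasi-likelihood test, adjusted p = 0.250) was 0.0011 with the length trend removed. Adgre1 (ENSMUSG00000004730, chr17:57665691-57790527) was at 46.4 and 35.6 CPM in saline and 68.0 and 35.2 CPM after treatment. Treated replicate 1 was the highest sample and treated replicate 2 the lowest, so the groups overlapped. Its log2 fold change was 0.33 ± 0.32 (SE; edgeR quasi-likelihood test, adjusted p = 0.567), and without treated replicate 1 it was -0.22.

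Mrc1 and Cd163, 2 endocytic receptors of M2-like and resident macrophages, were lower in both treated samples. Mrc1 (ENSMUSG00000026712, chr2:14234203-14336868) was at 212 and 392 CPM in saline and 135 and 171 CPM after treatment. Each treated sample was below each saline sample, and the saline samples were spread more widely than the treated ones. The means were 302 ± 127 and 153 ± 25.8 CPM (SD, n = 2), with a log2 fold change of -0.98 ± 0.30 (SE; 95% interval -1.71 to -0.25; edgeR quasi-likelihood test, adjusted p = 0.145, unadjusted p = 0.0164). Without saline replicate 2 it was -0.47 (unadjusted p = 0.141 in the same edgeR test), and without treated replicate 1 it was -0.82 (unadjusted p = 0.0668). Cd163 (ENSMUSG00000008845, chr6:124281615-124307486) was at 13.1 and 54.1 CPM in saline and 3.40 and 8.49 CPM after treatment. It was the gene of the set with the largest difference and also the widest saline spread, since saline replicate 2 was 4.12 times replicate 1. The means were 33.6 ± 29.0 and 5.94 ± 3.60 CPM, 5.66 times as high in saline, and the log2 fold change was -2.49 ± 0.72 (SE; 95% interval -4.21 to -0.77; edgeR quasi-likelihood test, adjusted p = 0.135, unadjusted p = 0.0116). For Cd163 it was -1.14 without saline replicate 2 (unadjusted p = 0.0602 in the same edgeR test) and -1.98 without treated replicate 1 (unadjusted p = 0.0515). Mrc1 passed the adjusted threshold in DESeq2 (adjusted p = 0.0265) and Cd163 in the edgeR exact test (adjusted p = 0.0195), each in 1 of these 2 tools.

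The arginine enzymes that stand for the M2-like and M1-like poles were both lower on average after treatment. Arg1 (ENSMUSG00000019987, chr10:24791119-24803382) was at 493 and 663 CPM in saline and 278 and 479 CPM after treatment. The highest treated sample was just under the lowest saline sample, so the groups were separate by a narrow margin. The log2 fold change was -0.61 ± 0.29 (SE; edgeR quasi-likelihood test, adjusted p = 0.258), and it ran from -0.27 without treated replicate 1 to -1.06 without treated replicate 2. Nos2 (ENSMUSG00000020826, chr11:78811613-78851080) was at 72.8 and 31.1 CPM in saline and 25 and 35.4 CPM after treatment. Only saline replicate 1 stood high and the other 3 samples overlapped, with a log2 fold change of -0.78 ± 0.40 (SE; edgeR quasi-likelihood test, adjusted p = 0.283) that was -0.053 without that sample. The ratio of Arg1 to Nos2 counts was 6.77 and 21.3 in saline and 11.1 and 13.5 after treatment, with both treated ratios between the saline ratios.

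Within a group the 10 genes also differed between replicates. Saline replicate 2 was above saline replicate 1 for Spp1, Arg1, Mrc1 and Cd163, and below it for the other 6 genes. Treated replicate 1 was above treated replicate 2 for Spp1, Apoe, Trem2, Gpnmb, Cd68 and Adgre1, and below it for Arg1, Nos2, Mrc1 and Cd163. Mrc1, Cd163 and Arg1 thus had their highest values in saline replicate 2 and their lowest in treated replicate 1, and Spp1, Apoe, Trem2, Gpnmb, Cd68 and Adgre1 were highest in treated replicate 1.

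Of the 10 genes, edgeR's quasi-likelihood test called 0 at the adjusted threshold. The 10 were chosen with earlier results of these data known, so the shares set beside them are a description. At an unadjusted p under 0.05, 2 of 10 were higher (Trem2 and Gpnmb), against 11.0% of all genes tested, and 2 of 10 were lower (Mrc1 and Cd163), against 12.2%. Groups did not overlap for 8 of the 10 genes, 5 higher and 3 lower, where 28.1% of all genes tested were higher without overlap and 28.8% lower, 57.0% in all. With 2 against 2 samples the smallest exact two-sided permutation p is 0.33, so separation of the groups alone cannot pass a threshold for a single gene.

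**Figure D2:**
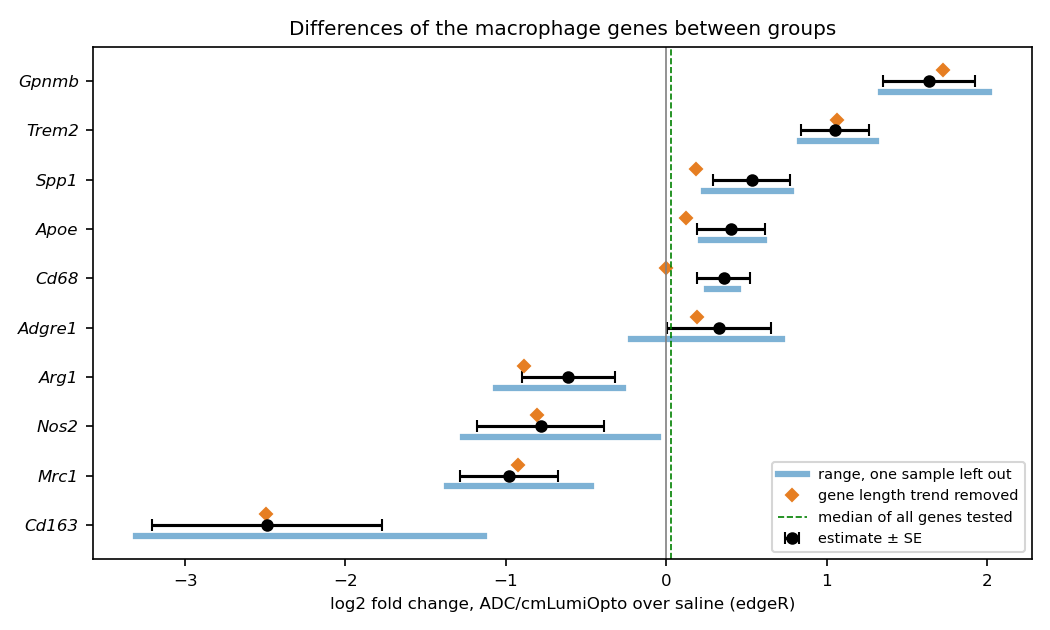
Log2 fold change of each of the 10 macrophage genes (ADC/cmLumiOpto over saline; point and bar, edgeR estimate ± SE), with the range when 1 sample was left out (blue) and the value with the gene length trend removed (orange). Gpnmb and Trem2 stay on the positive side and Mrc1 and Cd163 on the negative side in every case shown, whereas Adgre1 crosses 0 and Cd68 reaches 0.0011 with the length trend removed.

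Ratios between the genes within a sample do not depend on the library size. The count ratio of Trem2 to Mrc1 was 0.166 and 0.0638 in saline and 0.491 and 0.344 after treatment. The ratio of Gpnmb to Cd163 was 1.29 and 0.193 in saline and 14.3 and 4.32 after treatment. In both ratios the lipid-handling gene stood higher against the endocytic receptor in each treated sample than in each saline sample. Each pair sets a gene already higher without overlap against a gene already lower. This separation was therefore fixed in advance and is no further support. Relative to Cd68, Trem2 was at 0.436 and 0.33 in saline and 0.620 and 0.636 after treatment, and Mrc1 at 2.62 and 5.22 against 1.26 and 1.85. Cd163 relative to Mrc1 was at 0.0620 and 0.138 in saline and 0.0252 and 0.0495 after treatment. These ratios separated the groups without overlap, which for Mrc1 to Cd68 also followed from the separate values. Each had an exact two-sided permutation p of 0.33, the smallest that 2 against 2 samples can give.

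Per kilobase of gene length, the order of levels in saline ran from Spp1 (3125 ± 381 CPM per kilobase, SD, n = 2) through Apoe (976 ± 193), Arg1 (259 ± 54.0), Cd68 (61.9 ± 3.20), Mrc1 (47.4 ± 20), Adgre1 (12.7 ± 2.37), Nos2 (11.7 ± 6.65), Cd163 (6.16 ± 5.31) and Trem2 (6.09 ± 1.46) to Gpnmb (2.1 ± 0.698). Spp1, Apoe and Arg1 stood apart from their neighbours, while Cd68 and Mrc1, Adgre1 and Nos2, and Cd163 and Trem2 were within their spread. After treatment Trem2 was at rank 7 with 12.7 ± 1.03 CPM per kilobase and Cd163 at rank 10 with 1.09 ± 0.658. The length listed for Trem2, 4946 bases, covers all annotated exons, and with its principal transcript of 1088 bases the level of Trem2 was 27.7 ± 6.62 CPM per kilobase in saline and 57.5 ± 4.67 after treatment, at ranks 6 and 5 in the set.

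A list of 20 further macrophage markers was read as a rough guide to macrophage RNA in the samples. Their sum does not measure macrophage content, since other cells of the mixture also express some of them, such as Lyz2. All 20 were tested, and 3 were higher and 0 lower at an unadjusted p under 0.05, near the 11.0% of all genes tested that were higher. The median log2 fold change of the 20 was 0.38, against 0.028 over all genes tested. Their summed level was 5404 and 3908 CPM in saline and 8810 and 6174 CPM after treatment, without overlap, but Lyz2, the lysozyme gene of myeloid and alveolar cells, made up 31.2% and 28.9% of the sum in saline and 48.8% and 39.6% after treatment. Csf1r, the receptor for the macrophage growth factor CSF1, was at 305 and 157 CPM in saline and 247 and 202 CPM after treatment, with a log2 fold change of -0.042. Both treated values lay between the saline values, so this marker and the list sum did not point the same way. Tyrobp, the signaling partner of Trem2, was at 73.1 and 60.6 CPM in saline and 127 and 147 CPM after treatment (log2 fold change 1.04; edgeR quasi-likelihood test, adjusted p = 0.116). The log2 fold change of Spi1, which encodes the myeloid transcription factor PU.1, was 0.94 (same test, adjusted p = 0.155). Spi1 was at 69.9 and 52.1 CPM in saline, 83.2 CPM in treated replicate 1 and 151 CPM in treated replicate 2. The latter is the sample with the most neutrophil marker reads.

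Divided by the list sum of the same sample, Trem2 and Gpnmb were still higher in both treated samples (differences of 0.39 and 0.99 in log2 ratio). Cd163, Mrc1, Nos2 and Arg1 were still lower (differences of -2.99, -1.60, -1.36 and -1.33). Since the list sum was itself higher in both treated samples, a gene without a difference falls by this measure. A ratio to the list sum or to Csf1r is not a level per macrophage, since macrophages were not counted. Groups did not overlap, in either direction, for 63.9% of all genes tested. Apoe and Adgre1 were lower by this measure, with differences of -0.27 and -0.42, and Spp1 and Cd68 overlapped. Divided by Csf1r, Trem2 and Gpnmb were again higher (differences of 1.05 and 1.64) and Cd163 and Nos2 lower (-2.34 and -0.71). Apoe was higher by 0.38, and Mrc1 and Arg1 overlapped at -0.95 and -0.68. Here 23.4% of all genes tested did not overlap. The sign for Apoe, Adgre1, Spp1 and Cd68 thus depended on the reference. That for Trem2, Gpnmb, Cd163, Nos2, Mrc1 and Arg1 did not under these 2 references, though Mrc1 and Arg1 overlapped when divided by Csf1r. These unchanged signs also held with Lyz2 left out of the sum and with the mean log2 CPM of the list in its place. Before division, the log2 fold change of Nos2 was -0.053 without saline replicate 1.

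**Figure D3:**
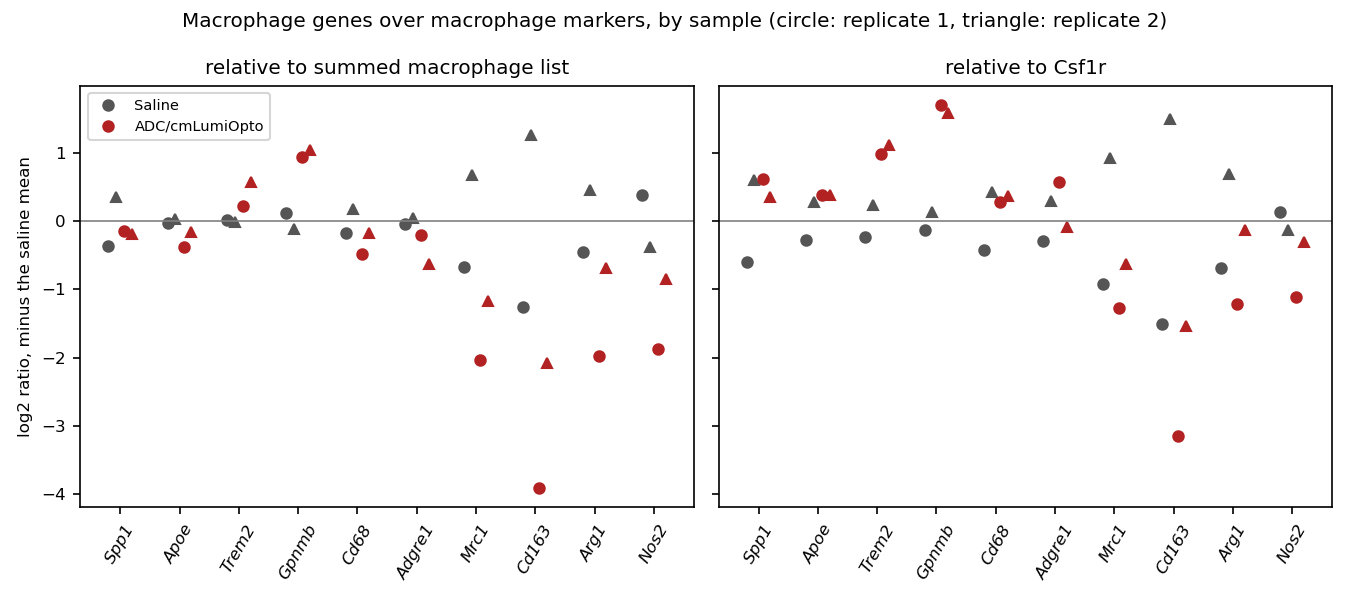
Log2 ratio of each of the 10 genes to the summed macrophage list (left) and to Csf1r (right) in every sample, minus the saline mean. Treated samples (red) lie above both saline samples (gray) for Trem2 and Gpnmb and below them for Cd163 and Nos2 in both panels, and Apoe lies on opposite sides in the 2 panels.

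The other genes of these pathways were read from lists, in which 0 genes had an adjusted p under 0.05 in edgeR's quasi-likelihood test. Counts below are at an unadjusted p under 0.05, at which 11.0% of all genes tested were higher and 12.2% lower. The lists were chosen with earlier results of these data known, so counts beside these shares are a description. Some genes stand in several lists and are counted in each, such as Tyrobp, Cd36, Stab1, Lrp1, Lamp3 and Hp. Of 20 further genes of the lipid-associated program, 8 were higher and 0 lower, with a median log2 fold change of 0.38. Cd36, the fatty acid receptor, was at 46.3 and 12.5 CPM in saline and 87.8 and 161 CPM after treatment, and Npc2, which exports cholesterol from lysosomes, had a log2 fold change of 0.72. Of 18 genes of Trem2 signaling and its ligands, 3 were higher and 2 lower, with a median of 0.49. Lrp1, an endocytic receptor that takes up apolipoprotein E, was among the lower genes, at 803 and 1033 CPM in saline and 359 and 495 CPM after treatment.

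Of the osteopontin receptors and processing enzymes, through which Spp1 acts, 14 of 16 were tested. Among these, 2 were higher and 5 lower, with a median log2 fold change of -0.30. Cd44 was at 505 and 780 CPM in saline and 447 and 392 CPM after treatment (log2 fold change -0.61), and the integrin subunits Itgav, Itgb3 and Itga5 had log2 fold changes of -0.56, -0.32 and -0.91, of which Itgb3 had an unadjusted p over 0.05. The 2 higher genes, Itgb6 and Itga8, are also integrin subunits, with log2 fold changes of 1.32 and 1.15. Mmp3, a protease that cuts osteopontin, was at -1.04 and Runx2, a transcription factor of bone that drives Spp1, at -1.13. Fibroblast and mural markers had 8 of 12 genes lower and 0 higher (median -0.69), with a summed level of 5393 and 3775 CPM in saline and 1961 and 1633 CPM after treatment. Their part in the Cd44 and integrin values was not tested.

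Among 15 tested genes of 17 in arginine metabolism, 2 were higher and 3 lower, near the shares over all genes tested, with a median log2 fold change of 0.086. Arg2, the mitochondrial arginase, was at 1.02, opposite in sign to Arg1. Slc7a2, the transporter that brings arginine into activated macrophages, was at 53.2 and 42.3 CPM in saline and 17.1 and 30.4 CPM after treatment (log2 fold change -1.01). Ddah1, which clears natural inhibitors of nitric oxide synthases, was at -0.89, and Gch1, which makes their cofactor tetrahydrobiopterin, at 1.19. Ass1, which regenerates arginine from citrulline, and Odc1, which turns ornithine into polyamines, had log2 fold changes of 0.24 and 0.12 with overlapping groups.

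Other M2-like genes differed in both directions. Of 17 tested M2-like genes of 18, 4 were higher and 2 lower (median log2 fold change 0.12), and of 16 tested M1-like genes of 18, 2 were higher and 0 lower (median 0.61). Mgl2 and Clec10a, lectins of alternatively activated macrophages and dendritic cells, had log2 fold changes of 2.51 and 1.58, the opposite sign to Mrc1. Stab1, a scavenger receptor of M2-like macrophages, was at 167 and 177 CPM in saline and 104 and 124 CPM after treatment, the same sign as Mrc1 and Cd163. Il1b, an inflammatory cytokine, was at 24.3 and 13.3 CPM in saline and 40.7 and 39.7 CPM after treatment, Il6 had a log2 fold change of -1.16, and Fpr2, a receptor for formyl peptides on neutrophils and macrophages, one of 1.62. Fpr2 was at 79.6 CPM in treated replicate 2, the sample with the most neutrophil marker reads, and at 23.0 CPM in treated replicate 1, against 22.1 and 11.3 CPM in saline.

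The relatives of these genes and the clearance route that follows Cd163 came next. Of 16 tested relatives of the scavenger receptors, mannose receptor, Cd68 and Adgre1 (of 17), 2 were higher and 1 lower, again near or under the shares over all genes tested, with a median log2 fold change of 0.087. Mrc2, the closest relative of Mrc1, was at 61.2 and 31.5 CPM in saline and 63.6 and 36.0 CPM after treatment, with overlapping groups. Lamp1, the general lysosomal relative of Cd68, had a log2 fold change of 0.072, and Lamp3, which type II alveolar cells also express, one of 2.38. Of 13 tested genes of hemoglobin and heme clearance (of 14), 3 were higher and 1 lower, with a median of 0.12. Hmox1, the heme oxygenase that acts after uptake by Cd163, was at 101 and 68.5 CPM in saline and 85.0 and 88.0 CPM after treatment, whereas Hp, which encodes haptoglobin, was at 123 and 53.0 against 315 and 480 CPM. The iron transporter Slc11a1 of phagosomes had a log2 fold change of 0.64.

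**Figure D4:**
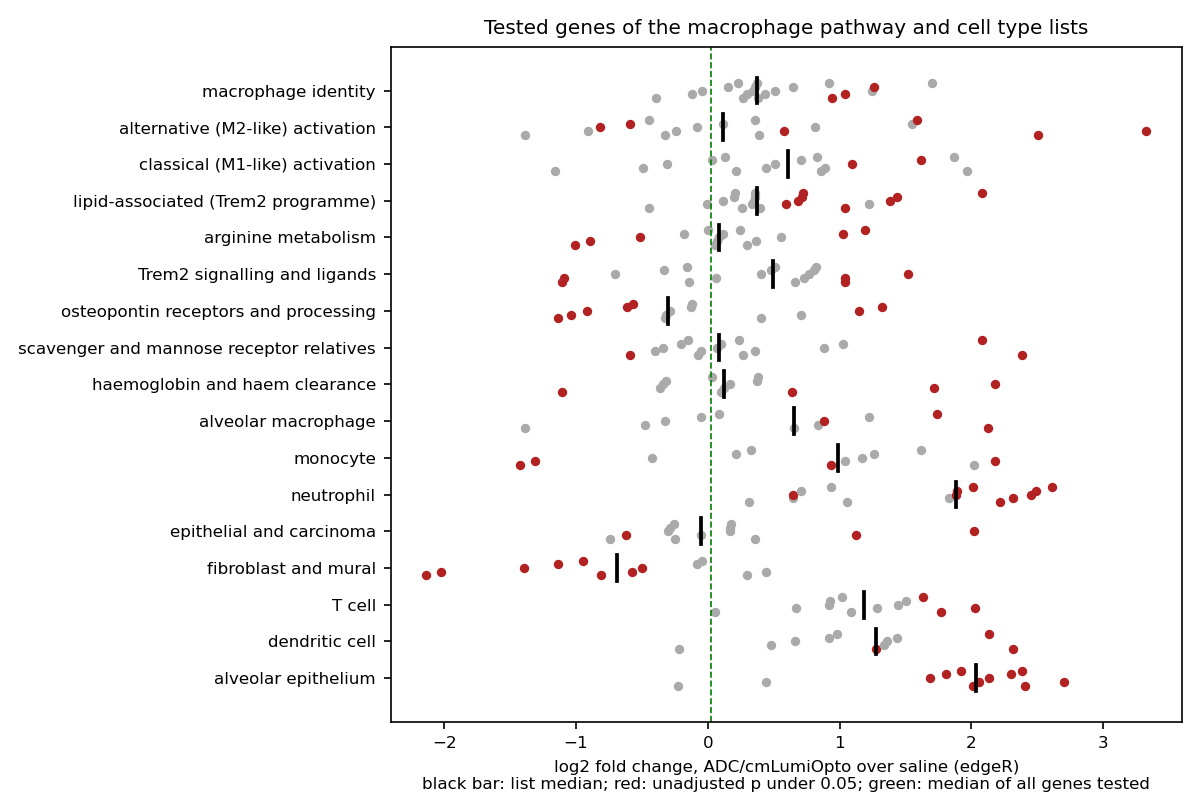
Log2 fold changes (ADC/cmLumiOpto over saline) of the tested genes of each list; points are genes, red at an unadjusted p under 0.05, black bars list medians, and the green line the median of all genes tested (0.028). Medians run from -0.69 for fibroblast and mural markers to 2.03 for alveolar epithelium.

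Markers of other cells differed between the samples beside the macrophage genes, and no marker of these lists was at 0 in all samples. Alveolar epithelium markers summed to 2028 and 644 CPM in saline and 6491 and 5743 CPM after treatment, with 10 of 12 higher and 0 lower (median log2 fold change 2.03), such as the surfactant gene Sftpd at 2.40. Apoe is also expressed by cells of normal lung. The part of lung tissue in the values of Apoe, the other 9 genes and the further genes of the lipid-associated program was not tested. Epithelial and carcinoma markers summed to 3237 and 3498 CPM in saline and 3153 and 3059 CPM after treatment, with 2 of 13 tested genes (of 14) higher and 1 lower, Krt14. Alveolar macrophage markers summed to 254 and 586 CPM in saline and 271 and 356 CPM after treatment, with overlap. Chil3, a chitinase-like gene of this list, was at 115 and 418 against 41.7 and 162 CPM. With Chil3 set aside after its values had been seen, the list summed to 138 and 168 against 229 and 193 CPM, higher without overlap. Of this list, 3 of 11 tested genes (of 14) were higher and 0 lower, led by Car4 at a log2 fold change of 2.13. Marco, Siglecf, Fabp4 and Pparg overlapped between the groups, with log2 fold changes of -0.055, 0.84, 0.088 and -0.48. The list thus gives no clear direction for alveolar macrophages. Monocyte markers summed to 1012 and 1004 CPM in saline and 1145 and 1846 CPM after treatment, with 2 of 12 higher and 2 lower. One of the lower genes, F13a1, a coagulation factor of monocytes and M2-like macrophages, was highest in saline replicate 2 (271 CPM), the sample in which Mrc1, Cd163 and Arg1 were also highest.

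Neutrophil markers summed to 2157 and 1220 CPM in saline and to 2092 and 10397 CPM after treatment, so treated replicate 2 stood apart, and 9 of 15 were higher and 0 lower (median log2 fold change 1.88). Neutrophils of tumor-bearing mice can also express Arg1, and Arg1 was higher in treated replicate 2 than in treated replicate 1; the part of neutrophils in this was not tested. Without treated replicate 2, which leaves 1 treated sample, the log2 fold changes of all 10 genes had the same signs. T cell markers summed to 72.0 and 26.4 CPM in saline and 152 and 67.5 CPM after treatment, with 3 of 12 higher and 0 lower, and dendritic cell markers to 3235 and 1416 against 4895 and 2058 CPM, with 3 of 11 tested genes (of 12) higher and 0 lower. The sums of both lists overlapped between the groups.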

How the data were processed

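Raw counts of sequencing reads per gene were deposited by the authors, as whole numbers without normalization, for 4 samples. The study's methods name HISAT2 and GRCm38, while the submitters' processing notes name HISAT, HISAT2, TopHat2 and mm39; the positions of 0 of the 10 genes matched GENCODE M21 (GRCm38), although all 10 spans had the same length. Whether counting used strand is not given in the sources used here. The study's methods describe biological samples from mice, and the labels do not tie a sample to a mouse, so p-values measure the spread between these samples. Transcripts that overlap the 10 genes held few reads (at most 34 for Gm42793 at Spp1 and 5 for a lncRNA at Cd163). Correlations of log2 values between replicates were 0.973 and 0.970.

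Groups were compared with edgeR 4.0.16 in R 4.3.3 (filterByExpr with a minimum count of 10 and minimum total of 15, TMM, estimateDisp, glmQLFit, glmQLFTest, Benjamini-Hochberg over 15320 genes, threshold 0.05). The standard error is the log2 fold change divided by the square root of F, with a prior count of 0.125. Simulated data with known changes were used to test the scripts. Alternatives were DESeq2 1.42.0, the edgeR exact test, library size without TMM, no filter, at least 10 counts in every sample, a replicate block, removal of a smooth gene length trend (lowess span 0.3), and each sample left out. Dividing by the macrophage list without Lyz2, by its mean log2 CPM, levels per transcript length, and the alveolar macrophage sum without Chil3 were added after the data had been seen. The 10 genes and all lists were chosen with earlier results of these data known. Named genes were drawn from the 10, their fixed partners, and the 3 genes of each list with the smallest p, apart from 1 gene that is not reported here. Chil3, Itgb6, Itga8, Marco, Siglecf, Fabp4 and Pparg were named after their values were seen. The floor of 3 counts and the intervals cover counting error and the fitted spread of the samples, respectively.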

Additional observations from a re-analysis of the deposited data

How the results depend on the processing

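Of the 110 log2 fold changes of the 10 genes under the alternatives, 90 kept their direction and side of the threshold, 19 kept their direction and passed an adjusted p of 0.05, and 1 reversed, Adgre1, which ranged from -0.22 (without treated replicate 1) to 0.72 (without treated replicate 2) with 1 sample left out. The number of the 10 genes with an adjusted p under 0.05, 0 in edgeR's quasi-likelihood test, was 3 with DESeq2 (8.69% of all genes tested), 3 with the edgeR exact test (7.46%) and 7 without a filter on low counts (8.84%). With 1 sample left out, which leaves 1 sample in its group, assumed to vary like the other group, it was from 0 to 2 (Gpnmb and Cd163 without saline replicate 1, edgeR adjusted p = 0.0271 and 0.0172, with 1.34% of all genes). With the replicate block it was 4 (Mrc1, Trem2, Gpnmb and Cd163), with 3.96% of all genes, but same-numbered samples deviated together with a correlation of 0.0985, so the samples share only a number and are not a paired design. Without TMM, with at least 10 counts in every sample, and with the gene length trend removed it was 0. Among the genes of the lists, 0 passed in edgeR's quasi-likelihood test, 42 with DESeq2, 101 without a filter and 0 with the length trend removed. The cause of these differences was not tested. The number of the 10 genes whose ratio to the macrophage list did not overlap between groups was 8 (63.9% of all genes tested), 5 with Csf1r as the reference (23.4%) and 7 without Lyz2 (53.4%).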
